A study of Mus musculus with 3 samples.

Results

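The acidic patch mutant of the histone variant H2A.Z (H2A.Z AP3) was called in 14599 enriched regions of the mouse embryonic stem cell (ESC) genome, and 1983 of these (13.6%) lay more than 1 kb from any region called for wild-type H2A.Z (H2A.Z WT). These far regions were chosen by their measured distance from both deposited H2A.Z WT lists, named for P thresholds of 1e-9 and 1e-12. Of the other 12616 regions, 10859 shared a base with an H2A.Z WT region and 1757 lay next to one without sharing a base, at a gap of at most 1000 bp. Ranges given after shares are 95% Wilson intervals. Distance from H2A.Z WT is therefore the definition of the far regions and not a result.

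The study asked where H2A.Z is found when its divergent acidic patch residues are exchanged for those of H2A (G92N, D97N and S98K). The H2AZ_WT and H2AZ-AP3 lines were KH2 ESCs that carried a lentiviral, doxycycline-inducible transgene tagged with YFP at the C terminus, driven by a CMV promoter under rtTA. Cells of both lines were sorted for YFP, both expressed hairpins against the 3′ UTR of endogenous H2A.Z under blasticidin selection, and chromatin of both was pulled down through the tag (anti-GFP). For H3K27me3 the chromatin came from ESCs labelled WT, with an antibody against the mark itself. The strain label is V6.5 (129SvJaexC57BL/6) for all 3 samples although the transgenic lines derive from KH2, and the cells were grown without feeders in the final passage. Each of the 3 groups was 1 library, so no comparison below carries a test between conditions. No library here mapped H3K27me3 in the mutant cells. The paper measured it there by ChIP-qPCR and found less of it at bivalent genes, which carry H3K4me3 as well. Neither clone nor pool is given for the transgenic lines.

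H2A.Z replaces H2A in nucleosomes that flank the start sites of genes and other regulatory elements, where it is loaded and removed by dedicated chromatin remodelers. The acidic patch is a cluster of residues on the nucleosome face that serves as a docking surface for chromatin proteins, and it is larger in H2A.Z than in H2A. H3K27me3 is laid down by Polycomb repressive complex 2, and in ESCs H2A.Z is known to accompany it at the promoters of silent developmental genes.

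As a check of the cell type, H3K27me3 was called at the promoters of 40 of 40 Hox genes and at 1 of 10 stem cell genes, Esrrb (2908 bp). H2A.Z AP3 was called at 22 Hox promoters and at none of the 10 stem cell genes, among them Pou5f1, Nanog and Sox2, whereas H2A.Z WT was called at 38 Hox promoters and at Esrrb and Lin28a. No far region lay at a promoter of either list. The lists hold no reads, so the depth behind them is unknown, and more reads pass a fixed threshold at more places. The H2A.Z WT list held 78359 regions over 28.3 Mb against 3.5 Mb for H2A.Z AP3, and for a far region a lack of H2A.Z WT means only that no region passed the thresholds.

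To show what the far regions look like in sequence, the central 30 bp of the 4 longest in promoters and of the 4 longest in intergenic sequence are printed from the + strand of mm9 (NCBIM37), with CpG dinucleotides in capitals. Genes are the nearest protein-coding start.
Aktip promoter, chr8:93659523-93659552: gttggaggccctctcccatggCGgCGtgta
Pcbd1 promoter, chr10:60552298-60552327: gggctagagtCGcctggcctcccttggggg
Cops6 promoter, chr5:138601861-138601890: gaagtctgcctagaCGaatagcaagttccc
Hgsnat promoter, chr8:27087561-27087590: CGttcactacctagagtgaatgatacaccc
near Rfwd3, chr8:113828361-113828390: cccatccaccacccCGcctacctccctcag
near Akr1b3, chr6:34281848-34281877: actatctacccaccaacccctgtgaggagc
near 5730419I09Rik, chr6:143063548-143063577: acctgtgtgagacattgctggatctctctc
near Tmem232, chr17:65908311-65908340: acagagcaatcccatggttcacagaatcag
Each promoter centre held 1 or 2 CpGs, and the intergenic centres held 1 or none. Over all far regions, the 300 bp around the midpoint held a median of 1.67 CpGs per 100 bp, against 3 in the other regions, and the median GC content was 50% against 55.67%. The difference was present within annotation classes, at 2.33 against 4.67 CpGs per 100 bp in promoters and 1.33 against 2 in intergenic sequence. The GC box GGGCGG, searched on both strands, was found in the same window of 9.98% of far regions (8.74 to 11.4%) and 23.1% of the other regions (22.3 to 23.8%). The rule may bear on these sequence values, since far regions must avoid H2A.Z WT, which is dense at promoters. Values for the sequence open to far regions are not given, so the part of the rule was not tested.

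A core of the consensus of CTCF, an insulator protein whose sites are flanked by ordered nucleosomes, was found in that window in 19 far regions (0.958%, 0.614 to 1.49%) and in 49 of the other regions (0.388%, 0.294 to 0.513%). Within each annotation class the intervals overlapped. In introns the shares were 1.57% (0.797 to 3.06%) and 0.575% (0.337 to 0.982%), and in intergenic sequence 0.849% (0.447 to 1.61%) and 0.46% (0.295 to 0.718%). The match is a description of the letters and not of a bound site. The 5 longest far regions with a match are shown on the strand of the match, with the core in capitals and the position of the printed bases in mm9. The 300 bp window is wider than most far regions. The core lay outside the called region at Arhgef1 and Dmpk and partly outside it at Ccdc38.
near Rpia, chr6:70756108-70756137, minus strand: ggccttcagCCACTAGGTGGCagcaacatt
Gc intron, chr5:89884734-89884763, plus strand: cacttccaaCCAGCAGGGGGCatgcccaga
Arhgef1 promoter, chr7:25691772-25691801, minus strand: tggggtggaCCAGTAGGGGGCgggtcccca
Ccdc38 intron, chr10:93011915-93011944, minus strand: ggccttctcCCACTAGGTGGCgatctctga
Dmpk intron, chr7:19674349-19674378, minus strand: acacaggccCCAGCAGGGGGCagtcgtgct
These 5 regions were 750, 425, 200, 200 and 175 bp long. Each held (shared at least 1 base with) a region of the 1e-12 H2A.Z AP3 list. They were picked for length, and 86.1% of all far regions of 200 to 300 bp held one. Several shorter regions with a match held none. The gap to H2A.Z WT was 70950 bp in the Gc intron and between 1200 and 3650 bp at the other 4. The octamer ATGCAAAT, bound by Pou5f1 and its relatives, was found near 18 far regions (0.908%, 0.575 to 1.43%) and 62 others (0.491%, 0.384 to 0.629%), and these intervals overlap. The E-box CACGTG was found at 6.3% against 7.32% and the YY1 core AAGATGGCG at 0.403% against 0.404%, both with overlapping intervals.

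**Figure D1:**
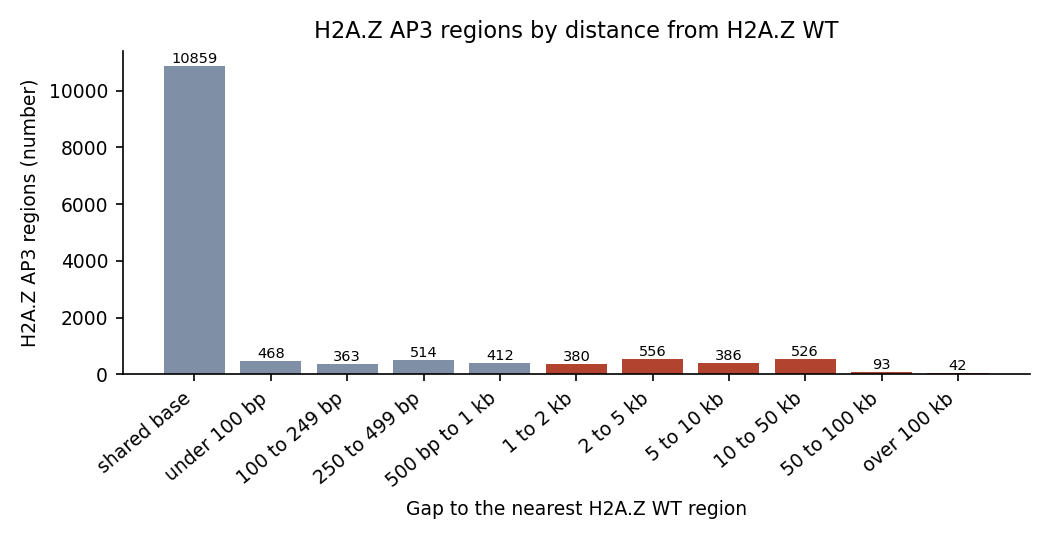
Number of H2A.Z AP3 regions (y axis) by the gap to the nearest H2A.Z WT region of either list (x axis, unequal classes). Red bars are the far regions, of which 380 lie between 1 and 2 kb from H2A.Z WT and 42 over 100 kb away. The blue bars are the other regions, led by 10859 that share a base.

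The far regions lay a median of 5525 bp from the nearest H2A.Z WT region (quartiles 2500 and 14425 bp), and 135 of them were more than 50 kb away. Just inside the threshold, 18 far regions had a gap of 1025 bp. The first 3 by position were a region of 100 bp in a Rapgef4 intron and intergenic regions of 300 bp near Fam98b and 200 bp near Entpd6. Just outside it, 12 regions had a gap of 1000 bp, and the first 3 were 175 bp near Tsen15, 50 bp in a Cubn intron and 150 bp in the Sh2d3c promoter. The region farthest from H2A.Z WT, at 600100 bp, was 25 bp in the promoter of the olfactory receptor gene Olfr1495.

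The far regions were short. Their median length was 100 bp (quartiles 50 and 175 bp, longest 1650 bp), against 175 bp (quartiles 75 and 325 bp, longest 3350 bp) for the other regions. A single bin of 25 bp, the smallest length in the lists, made up 438 far regions (22.1%, 20.3 to 24%) and 12% of the others (11.4 to 12.6%). At the upper end, 47 far regions (2.37%, 1.79 to 3.14%) reached 500 bp, against 13.4% of the others (12.8 to 14%). All far regions together covered 266.3 kb, which is 7.6% of the bases called for H2A.Z AP3.

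The longest far region was 1650 bp of intergenic sequence on chromosome 8 (113827551 to 113829200), 4254 bp upstream of Rfwd3, which encodes a ubiquitin ligase of the DNA damage response. The next was 1500 bp over an exon of A430010J10Rik, annotated as a lincRNA on chromosome 6. An intergenic region of 1325 bp lay 14366 bp upstream of the aldo-keto reductase gene Akr1b3, and one of 1050 bp covered an exon of Ubn2, a subunit of a histone chaperone complex. The other 6 of the 10 longest measured 800 to 975 bp and lay near Klhdc4, 5730419I09Rik, Tmem232, Aktip, Pcbd1 and Chd9. Of these 10 regions, 8 were on chromosomes 6 and 8, and 9 held a region of the 1e-12 list, the exception being the one near Tmem232. Outside those chromosomes the longest were those near Tmem232 (900 bp) and at Pcbd1 (875 bp), an intron of 1700011E24Rik (725 bp), intergenic sequence near Gne (700 bp) and the Cops6 promoter (700 bp).

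The share of all H2A.Z AP3 regions that held a region of the 1e-12 list, meaning at least 1 shared base, was 55.4%. Among far regions it was 36.3% (719 regions, 34.2 to 38.4%) and among the others 58.4% (57.5 to 59.2%). The difference went with length. Far and other regions gave 16.1% and 16.9% at 75 to 100 bp, 60.5% and 62.8% at 125 to 175 bp, and 86.1% and 88.5% at 200 to 300 bp, each pair with overlapping intervals. At 325 bp or more, 81.4% of far regions (74.2 to 87%) and 91.8% of the others (90.8 to 92.7%) held one. With the other regions weighted to the lengths of the far regions their share was 38.2%. The share among far regions moved little with distance from H2A.Z WT, between 33.3% and 38.2% over 5 classes of gap, and the median length was 100 bp in each class.

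Few far regions lay in promoters. Promoters, here all sequence up to 2 kb from any protein-coding start, held the midpoints of 37.1% of all H2A.Z AP3 regions, of 318 far regions (16%, 14.5 to 17.7%) and of 40.4% of the others (39.5 to 41.3%). Introns held 510 far regions (25.7%, 23.8 to 27.7%) against 17.9% of the others, and intergenic sequence held 1060 (53.5%, 51.3 to 55.6%) against 32.7%. Exons outside promoters held 95 far regions (4.79%), 46 of them in coding sequence, against 8.99% of the others. In the H2A.Z WT list 24.2% of regions were in promoters and 40.3% were intergenic. Seen from each class, 5.87% of promoter regions (5.28 to 6.53%) and 20.4% of intergenic regions (19.4 to 21.6%) were far.

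The rule itself bears on these shares, since H2A.Z WT regions are dense at promoters. Sequence over 1 kb from every H2A.Z WT region made up 93.6% of the chromosomes, and promoters were 2.9% of it against 23.9% of the remaining sequence. The 16% of far regions in promoters thus stands beside 2.9% of the sequence open to them. The median distance to a protein-coding start was 15823 bp for far regions and 6252 bp for the others, and 172 far regions (8.67%, 7.51 to 9.99%) lay over 100 kb from one, against 6.06% (5.66 to 6.49%). Within intergenic sequence alone the order turned, with a median of 22962 bp for far regions and 26810 bp for the others, and 11.7% (9.9 to 13.8%) against 13% (12 to 14.1%) lay over 100 kb away, with overlapping intervals.

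**Figure D2:**
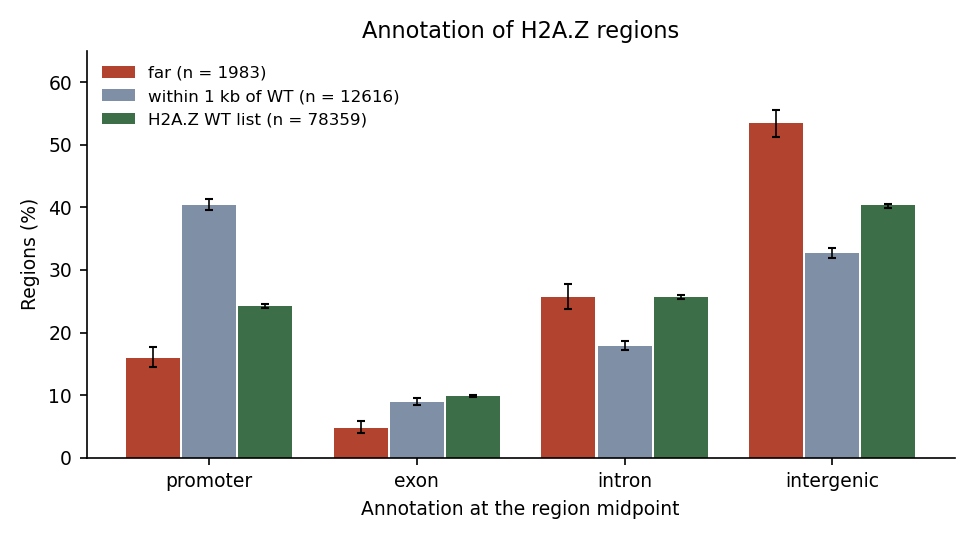
Percentage of regions (y axis) by annotation at the midpoint (x axis) for far H2A.Z AP3 regions, H2A.Z AP3 regions within 1 kb of H2A.Z WT, and the H2A.Z WT list. Bars are shares and error lines are 95% Wilson intervals, and the far regions have the lowest promoter share (16%) and the highest intergenic share (53.5%) of the 3.

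Within promoters the far regions lay more often on the upstream side. Of the 318, 217 were centred upstream of the nearest start (68.2%, 62.9 to 73.1%) and 101 downstream, against an upstream share of 42.6% (41.3 to 44%) of the 5096 other promoter regions. The rule bears on position as well, since a far region must keep 1 kb from any H2A.Z WT in the same promoter. Of the promoter sequence over 1 kb from H2A.Z WT, 50.5% was upstream of the nearest start, and of the remaining promoter sequence 45.3%. Among the 184 far promoter regions over 5 kb from H2A.Z WT, 124 were upstream (67.4%, 60.3 to 73.7%). The median distance to the start was 520 bp against 330 bp, and 28% of far promoter regions (23.3 to 33.2%) were 1 to 2 kb away against 11.4% (10.6 to 12.3%). The first 250 bp downstream of the start, the place of the first nucleosome of the gene, held 10.4% of far and 24.9% of other promoter regions. Starts of 2 or more genes lay within 2 kb of 21 far promoter regions (6.6%) and 9.46% of the others.

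**Figure D3:**
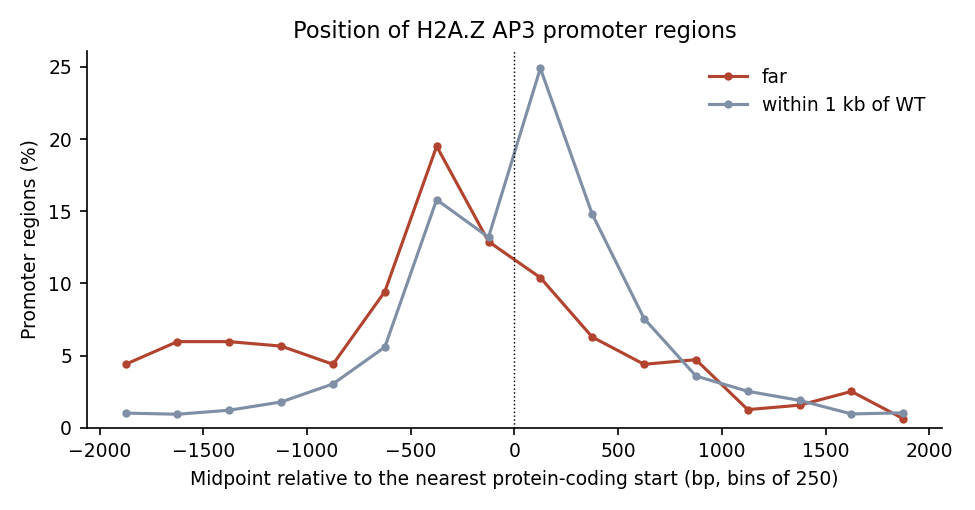
Percentage of promoter regions (y axis) by position of the midpoint relative to the nearest protein-coding start (x axis, bins of 250 bp, downstream to the right). The most common bin is 250 to 500 bp upstream for the 318 far regions (19.5%) and the first 250 bp downstream for the 5096 other regions (24.9%).

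H2A.Z AP3 was centred at the promoters of 22.1% of the 22342 protein-coding genes and a far region at those of 331 genes (1.48%, 1.33 to 1.65%). At 215 of the 331 (65%) no H2A.Z WT region was called anywhere within 2 kb of a start, and at the other 116 H2A.Z WT was called elsewhere in the promoter. Another H2A.Z AP3 region, within 1 kb of H2A.Z WT, was centred at 36 of the 331. At 11 genes there were 2 far regions, among them Asns (asparagine synthetase), Apc (a negative regulator of Wnt signalling) and Fyn (a Src family kinase).

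The 10 longest promoter regions measured 475 to 875 bp. The 875 bp at Aktip, which encodes an AKT-interacting protein of vesicle transport, lay 1174 bp upstream of the start, and 550 bp of H2A.Z WT were called elsewhere in that promoter. The 875 bp at Pcbd1, a pterin dehydratase that is also a cofactor of HNF1 transcription factors, lay 222 bp downstream, with no H2A.Z WT in the promoter. The region at Cops6, a subunit of the COP9 signalosome, was 700 bp and lay 423 bp upstream. The region at Hgsnat, a lysosomal acetyltransferase of heparan sulfate breakdown, was 600 bp and lay 360 bp upstream. The 2 regions at Sirt7 (550 bp), a nucleolar deacetylase, and Ankrd13d (525 bp) lay 265 and 270 bp downstream. Upstream regions of 475 to 500 bp were found at Apbb2, an adaptor of the amyloid precursor protein, Eif3g, a translation initiation factor, Prcc and Pla2g12a, a secreted phospholipase. H2A.Z WT was called in the promoters of Aktip and Apbb2 and in those of none of the other 8, and H3K27me3 in none of the 10. Sirt7 was the exception among the 10 in holding no region of the 1e-12 list.

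Gene families fixed by name were counted against the 1.48% of all genes. No far region was centred at the promoters of 168 Hox, forkhead, Sox, Pax, T-box, Wnt and Fgf genes, which allows a share of up to 1.79% and so cannot be told from the share of all genes. Of these 168 genes, 44.6% had an H2A.Z AP3 region of any kind at the promoter, against 22.1% of all genes, and 90.5% had H2A.Z WT, against 62.6% of all genes. Far regions were centred at 9 of 344 Zfp zinc finger genes (2.62%, 1.38 to 4.9%), among them Zfp281 and Zfp91, and at 8 of 355 solute carriers (2.25%, 1.15 to 4.38%), among them the glucose transporters Slc2a1 and Slc2a3. Both intervals include the share of all genes. Symbols of the ribosomal protein pattern gave 6 of 144 (4.17%, 1.92 to 8.79%), namely Rpl22l1, Rpl36a, Rpl7a-ps8, Rps12, Rps4y2 and Rps6kb2, of which the last encodes a kinase of ribosomal protein S6 and not a ribosomal protein. Without the kinases the count was 5 of 134 (3.73%, 1.6 to 8.44%), and without pseudogene symbols as well it was 4 of 81 (4.94%, 1.94 to 12%). These lower limits lie close to the 1.48% of all genes, and 22 families were counted. H2A.Z AP3 of any kind was at 18 of the 144 genes (12.5%), against 22.1% of all genes, and H2A.Z WT at 54 (37.5%), against 62.6%.

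In most other families the count was 0 or 1, and most of these shares cannot be told from the 1.48% of all genes. Olfr1495 was the single case among 1087 olfactory receptor genes (0.092%, 0.0162 to 0.519%), below the share of all genes. H2A.Z AP3 of any kind was at 10 of these 1087 genes (0.92%), against 22.1% of all genes, so the low share is not particular to far regions. Potassium channels (0 of 96, up to 3.12%), vomeronasal receptors (0 of 320, up to 0.938%), defensins (0 of 53, up to 5.66%), replication-dependent histones (0 of 67, up to 4.48%), collagens (0 of 44, up to 6.82%), protocadherins (0 of 36, up to 8.33%), taste receptors (0 of 38, up to 7.89%), killer cell lectin-like receptors (0 of 28, up to 10.7%) and carboxylesterases (0 of 21, up to 14.3%) had none. Among these families with none, only the limit of the vomeronasal receptors lay below the share of all genes. Vomeronasal and taste receptors, defensins, replication-dependent histones and carboxylesterases had no H2A.Z AP3 region of any kind at the promoter. The sterol demethylase gene Cyp51 was the 1 of 98 cytochrome P450 genes and Krt18 the 1 of 51 keratins. Gene models without a name had 34 of 3460 (0.983%, 0.704 to 1.37%), and 12.3% of them had H2A.Z AP3 of any kind. Start sites of non-protein-coding genes lay within 2 kb of 88 far regions (4.44%, 3.62 to 5.44%) and 6.92% of the others, and 21 of the genes were lincRNAs.

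H3K27me3 was rarer at the far regions than at the other H2A.Z AP3 regions. Of all H2A.Z AP3 regions, 11.2% shared a base with an H3K27me3 region. Of the far regions 17 did (0.857%, 0.536 to 1.37%), and of the others 1625 (12.9%, 12.3 to 13.5%). In promoters the shares were 2.52% of far regions (8 of 318) and 22.2% of the others. The median distance to H3K27me3 was 108300 bp for far regions and 48300 bp for the others, and 951 far regions (48%, 45.8 to 50.2%) lay within 100 kb against 66.1% (65.3 to 66.9%). Among genes, H3K27me3 was called in the promoters of 35 of the 331 genes with a far region (10.6%, 7.7 to 14.4%), 35.7% of the genes with another H2A.Z AP3 region (34.3 to 37.1%) and 17.8% of all protein-coding genes. Of these 35 genes, 14 were among the 215 without H2A.Z WT in the promoter (6.51% of the 215, 3.92 to 10.6%), and the rest had H2A.Z WT there.

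Here too the rule removes much of the mark, since H3K27me3 co-locates with H2A.Z WT. H3K27me3 covered 0.0916% of the sequence over 1 kb from H2A.Z WT and 4.19% of the remaining sequence. The 0.857% of far regions that shared a base with it stands beside 0.0916% of the sequence open to them. The former counts regions and the latter bases, so they are unlike measures. Seen from the mark, 5184 of its 16970 regions (30.5%) were over 1 kb from H2A.Z WT, and 17 of these (0.328%) shared a base with H2A.Z AP3, against 1568 of the 11786 near H2A.Z WT (13.3%).

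**Figure D4:**
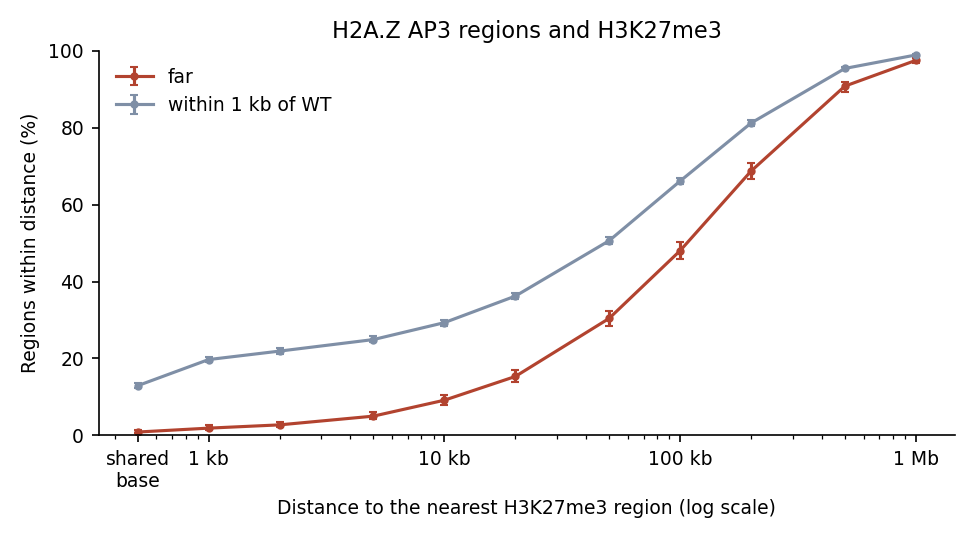
Percentage of regions (y axis) that lie within a given distance of an H3K27me3 region (x axis, log scale, the first point being a shared base) for far H2A.Z AP3 regions and those within 1 kb of H2A.Z WT. Error bars are 95% Wilson intervals. The far regions rise from 0.857% to 97.5% at 1 Mb and stay below the others throughout.

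The 17 far regions with H3K27me3 were mostly short, 7 of them a single bin. The most shared bases were at the 4930444P10Rik promoter (300 of 350 bp), an exon of Kiss1r, the receptor of kisspeptin (250 of 250 bp), and the promoter of Ptprb, an endothelial receptor phosphatase (150 of 150 bp). The next 4 were the promoter of the neuronal transcription factor gene Bhlhe22 (100 bp), an intron of Dlx6os1 next to the homeobox gene Dlx6 (100 bp), intergenic sequence near Smug1 (75 bp) and an intron of March3 (75 bp). Regions near Foxd3 and in a Myh7 intron shared 50 bp each, and that at the Meig1 promoter shared 25 bp. The remaining 7, each with 25 bp shared, were at the promoters of Whsc1, Cilp2, Wsb1 and the immediate early gene Egr1 and near Dmrta2, C2cd4b and Efna5. Of the 17, those at Kiss1r and Wsb1 held a region of the 1e-12 list.

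Far regions were densest on chromosomes 6 and 8. Chromosome 6 held 291 (1.95 per Mb) and chromosome 8 held 231 (1.75 per Mb), and the other 17 autosomes ranged from 0.313 per Mb on chromosome 12 to 1.21 on chromosome 11, with a median of 0.643. The X chromosome held 9 (0.054 per Mb). It was also below every autosome in all H2A.Z AP3 (0.432 per Mb), H2A.Z WT (4.16) and H3K27me3 regions (1.22). Of its H2A.Z AP3 regions 12.5% were far (6.72 to 22.1%). The ratio of chromosomes 6 and 8 to the other autosomes was 2.8 for far regions, 3.11 for all H2A.Z AP3 regions, 1.85 for H2A.Z WT and 0.923 for H3K27me3. As a share of the H2A.Z AP3 regions of each chromosome, far regions were 13.6% on chromosome 6 and 11.5% on chromosome 8, within the 8.74 to 16.8% of the other autosomes. The 2 chromosomes held 28.4% of all H2A.Z AP3 regions, 26.3% of far regions (24.4 to 28.3%) and 28.7% of the others (27.9 to 29.5%), and with the others weighted to the lengths of the far regions the order reversed, at 23.9%.

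**Figure D5:**
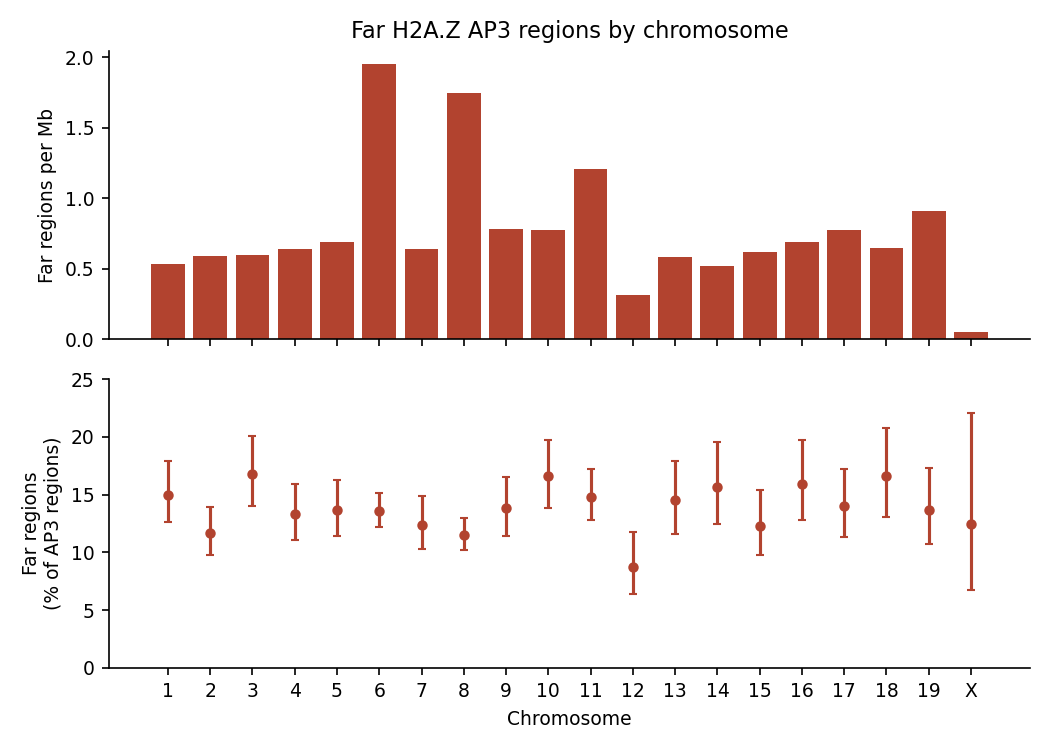
Far H2A.Z AP3 regions per Mb (upper panel, y axis) and as a percentage of the H2A.Z AP3 regions of each chromosome with 95% Wilson intervals (lower panel, y axis), by chromosome (x axis). Chromosomes 6 and 8 stand out in density (1.95 and 1.75 per Mb) but not in the percentage (13.6 and 11.5%).

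Most far regions had no other far region within 10 kb. Joined across gaps of up to 10 kb, they formed 1830 loci, of which 1705 held 1 far region, 105 held 2 and 20 held 3 or more. Another H2A.Z AP3 region of any kind lay within 1 kb of 112 far regions (5.65%, 4.72 to 6.75%) and of 20.8% of the others (20.1 to 21.5%). The rule bears on the 1 kb share, since a far region cannot lie within 1 kb of H2A.Z WT. Within 10 kb another H2A.Z AP3 region lay near 716 far regions (36.1%, 34 to 38.2%) and 46.6% of the others (45.7 to 47.4%). The 4 loci with 4 or more far regions were on chromosomes 6 and 8. A span of 20825 bp on chromosome 6 (4964751 to 4985575) in Ppp1r9a held 6, with no other H2A.Z AP3 and no H2A.Z WT region inside it. A span of 19950 bp on chromosome 6 (67099601 to 67119550) at A430010J10Rik also held 6, with 1 H2A.Z WT region. Next came 4 near Serbp1 on chromosome 6 (67167301 to 67176475), 4 nearest to the stem cell gene Zfp42 on chromosome 8 (44411501 to 44415975), and 3 more in Ppp1r9a (5054351 to 5067275). The last was tied with 15 other loci of 3 far regions, among them loci on chromosomes 11 and 19, and is named because ties were broken by chromosome and start.

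Ppp1r9a, which encodes the actin-binding protein phosphatase scaffold neurabin, held 11 far regions in its 262.7 kb, the most of any gene together with Gm20388. They were 25 to 300 bp long, covered 1525 bp in all, lay 2400 to 18700 bp from H2A.Z WT, and 4 held a region of the 1e-12 list. The gene also held 10 other H2A.Z AP3 regions, 15 of H2A.Z WT and no H3K27me3. Gm20388 is a gene model of 4435 kb on chromosome 8 that spans many other genes and held 216 other H2A.Z AP3 regions beside its 11 far ones. Ninj2 had 5, and Nmnat2 and Arfip1 had 4 each. Of the 606 protein-coding genes with a far region in the body, 77 had 2 or more.

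The stretch nearest to Gadd45a, a stress-induced growth arrest gene, and Serbp1, an RNA-binding protein gene, was chosen for its count after its values were seen. It held 16 far regions between 66979351 and 67210450 on chromosome 6, covering 5075 bp, with lengths from 25 to 1500 bp. Of these, 10 held a region of the 1e-12 list, and 11 other H2A.Z AP3 and 21 H2A.Z WT regions lay in the same stretch. The 3 regions of 275 to 425 bp at its Gadd45a end lay 38400 to 39950 bp from H2A.Z WT.

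Repeated sequence was compared by the copies of each 31-mer in the 300 bp windows. At least 1 31-mer with more than 1 copy in the genome was found at 19.1% of far regions (17.4 to 20.9%) and 11.3% of the others (10.8 to 11.9%), while over 50% of 31-mers were repeated at 0.303% and 0.349%, with overlapping intervals. Simple repeat runs were found at 2.67% (2.05 to 3.48%) and 2.16% (1.92 to 2.42%). The part of repeated sequence in the far calls was not tested.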

How the data were processed

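The authors sequenced single-end ChIP-Seq libraries, aligned reads to mm9 with Bowtie 0.12.3 allowing 2 mismatches, extended them to 200 bp, counted them in bins of 25 bp and kept bins at P below 1e-9 by a Poisson model with at least 5-fold signal over input. The deposited lists hold start and end coordinates of regions called per library, with no score, height or p-value, so the depth per sample and the precision it gives are unknown. The threshold of 1e-12 is given by the list's name, and how it was applied is not given in the sources used here.

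From these coordinates, the gap to the nearest region was computed as the number of bases between them, and overlap as at least 1 shared base. The midpoint placed each region in a promoter or, failing that, an exon, an intron or intergenic sequence, with GENCODE vM1 on NCBIM37. CpG, motifs and 31-mers were counted in 300 bp around midpoints. Wilson intervals (95%) treat regions as independent and cover counting error only, and limits for a count of 0 use 3 counts. With 1 library in each of 3 groups no test was made. The groups came from the genotype and antibody labels. The members, the gene lists and the naming rule were chosen with earlier results of these data known. Named were the 10 longest far regions, the 5 longest outside chromosomes 6 and 8, the 10 longest in promoters, the 10 with the most H3K27me3 bases (the other 7 and the farthest region were added later), the top 5 genes and loci, and the 3 on each side of the threshold. The counts without kinase and pseudogene symbols and the upstream share over 5 kb from H2A.Z WT were added after seeing the data. Alternatives covered the distance, the lists, length, chromosomes, joining and windows. Scripts ran in Python 3.11.15 with NumPy 2.4.6 and pandas 2.3.3, and were tested on simulated data.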

Additional observations from a re-analysis of the deposited data

Results flagged for a closer look

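The H2A.Z AP3 list named for 1e-12 held 2529 regions that shared no base with the 1e-9 list used in the report, although a stricter threshold would be expected to give regions inside it. Of these, 405 (16%, 14.6 to 17.5%) also had no H2A.Z WT region within 1 kb. Among the regions of the 1e-9 list 13.6% were far, which is below that interval. The 405 regions lie in data that the comparisons above do not use. Their median length was 75 bp, 14.8% were centred in promoters, 4 shared a base with H3K27me3 and 19.5% were on chromosomes 6 and 8. How the lists came to differ was not tested.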

How the results depend on the processing

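The number of far regions was 3740 when any gap counted as far, 1047 at 5 kb, 1136 in the 1e-12 list and 1119 among regions of at least 100 bp. Their share with H3K27me3 was 2.14% with any gap, 0.528% in the 1e-12 list, 1.87% within 1 kb of the mark and 2.52% in promoters, each below the other regions. The promoter share was 25.8% with any gap, 19% in the 1e-12 list, 18% from 100 bp, 18.1% without chromosomes 6 and 8, and 11.5% and 27% with windows of 1 and 5 kb, again below the others each time. Chromosomes 6 and 8 held 28.6% of far regions from 100 bp and 16.7% of those in promoters. Against length-weighted others (23.9%) the far share of 26.3% was the higher one, the reverse of the unweighted order. The median length was 175 bp from 100 bp and 125 bp in promoters, the share with a 1e-12 region was 63% and 47.8%, and promoters had 2.33 CpGs per 100 bp. Genes with a far promoter region numbered 999 with any gap, 194 at 5 kb, 213 from 100 bp and 579 with a window of 5 kb. Settings restricted to promoters and the 31-mer measure were chosen after seeing the data. The planned share of repeat-masked bases was not run, since the reference sequence used here carries no masking. No paired analysis was possible because each group is 1 library. Depth is unknown, and these lists cannot show how close H2A.Z WT came to its threshold at a far region.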
